A study of Nicotiana benthamiana with 9 samples.

Results

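The stretch of the green fluorescent protein (GFP) transgene that lies between the target sites of the siRNAs siR164 and siR386 was examined in leaves of Nicotiana benthamiana line 16C, a plant line that carries this transgene. It comprises 200 of the 792 single positions of the GFP contig and was chosen by position alone: it begins just 3' of the 22-nt site of siR164 and ends just 5' of the site of siR386. The number in an siRNA's name is the contig position at which its site begins, and the site of siR739 lies further 3'. Positions of the stretch are given below as their distance past the 3' end of the siR164 site, from 1 to 200 nt, so that the siR386 site begins at 201 nt. Synthetic 22-nt siRNAs had been brought in by high-pressure spraying at 140 ng/µl, and only silenced areas were collected, 6 days later, with 3 leaves pooled to a tube. The siR164 group holds replicates 1 to 3, the siR386 group replicates 4 to 6 and the siR739 group replicates 7 to 9, 1 library each. The deposited sheets of the siR386 group carry another number, siR364, and the sample titles were followed. All groups carry the same transgene and received an siRNA against it, so no untreated leaf stands beside them. The labels do not tie the libraries to separate plants, and every p-value therefore refers to the spread among these 9 libraries, which can be technical.

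In plants, an siRNA that guides an Argonaute protein to a transcript can lead to transitive silencing: an RNA-dependent RNA polymerase copies the transcript into double-stranded RNA, and Dicer-like enzymes cut it into secondary siRNAs. These secondary siRNAs come from parts of the transcript outside the site of the applied siRNA, on either side of it, and 22-nt siRNAs are known as strong triggers of the process. The positions of the stretch lie outside all 3 sites, 3' of the own site for siR164 and 5' of it for siR386 and siR739. A small RNA that covers an edge of the stretch can still reach into the site beside it.

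Each value is read coverage, the number of small RNA reads of any length and either strand that overlap a position, with no scaling to library size. The stretch's summed coverage was 31561, 8817 and 13967 in the siR164 libraries, 3951, 6030 and 3101 in the siR386 libraries, and 1760, 764 and 1462 in the siR739 libraries, in the order of their replicate numbers as in all lists below. Divided by a read length of 22 nt, these sums equal about 401 to 1435 reads for siR164, 141 to 274 for siR386 and 35 to 80 for siR739, so the course along the stretch was least precise for siR739. Over the 10 windows of 20 nt that tile the stretch, replicate pairs had a chi-square of 0.205 to 1.21 per degree of freedom on read equivalents (9 pairs), and none of the p-values was below 0.283. No difference in relative course beyond counting noise was thus detected between replicates, although reads shared by neighbouring windows lower the statistic. Sums of replicates differed by up to 3.58 times, and all libraries were kept apart.

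The first 3 positions of the stretch were marked as part of the zeroed site, since 6 of 9 libraries were at 0 at 1 nt, 6 at 2 nt and 3 at 3 nt. The siR164 site beside them was at 0 throughout in 7 libraries. In siR386 replicate 6 all 22 site positions were above 0, up to 48 reads, and in siR739 replicate 8 2 positions were, up to 11 reads. The first 3 positions held at most 1.14% of the stretch's sum in any library, in siR386 replicate 4.

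Small RNA in the stretch was most abundant in leaves that had received siR164. Mean coverage was 158, 44.1 and 69.8 reads per position in the siR164 libraries, 19.8, 30.2 and 15.5 in the siR386 libraries, and 8.80, 3.82 and 7.31 in the siR739 libraries. The 3 groups did not overlap, with the lowest siR164 library above the highest siR386 library and the lowest siR386 library above the highest siR739 library. Over the whole contig, summed coverage was 37219 to 124846 with siR164, 20325 to 40515 with siR386 and 6536 to 13059 with siR739. There too the siR386 libraries lay above the siR739 libraries, while siR164 and siR386 libraries overlapped. Group means of the stretch came to 90.6 ± 59.6 (siR164), 21.8 ± 7.53 (siR386) and 6.64 ± 2.56 (siR739; SD over 3 libraries). The siR164 mean was 4.15 times as high as the siR386 mean and 13.6 times as high as the siR739 mean, or 2.61 and 8.57 times as high without siR164 replicate 1. In the authors' deposited table, which is normalized and pools the libraries of a group, the mean signal over the same rows was 95.3 in the siR164 column, 27.7 in the siR386 column and 7.59 in the siR739 column, with ratios of 3.44 and 12.6. Its unit is not that of coverage, so these signals are not comparable in size with the means above. Fewer silenced cells in a leaf and fewer small RNAs per cell cannot be told apart in such samples, nor can library depth and small RNA level in raw coverage.

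The level was also set against the 331-nt stretch between the siR386 and siR739 sites, the next one 3', since a ratio within a library does not depend on its depth. That ratio of mean coverages was 0.574, 0.529 and 0.590 in the siR164 libraries, 0.361, 0.299 and 0.329 in the siR386 libraries, and 0.280, 0.254 and 0.382 in the siR739 libraries. All siR164 libraries lay above the 6 others, whereas siR386 and siR739 libraries overlapped. On the log2 scale siR164 minus siR386 was 0.78 (SE 0.093), siR164 minus siR739 was 0.91 (SE 0.18) and siR386 minus siR739 was 0.13 (SE 0.19). Coverage was thus below that of the 3' neighbour in all 9 libraries, and closest to it where the applied siRNA targets the 5' edge of the stretch. The neighbour lies 3' of the siR386 site and 5' of the siR739 site, so both parts of the ratio may differ between the siRNAs. No p is given for the level or the ratio of the stretch as a whole, since it was chosen with earlier results of these libraries known.

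**Figure D1:**
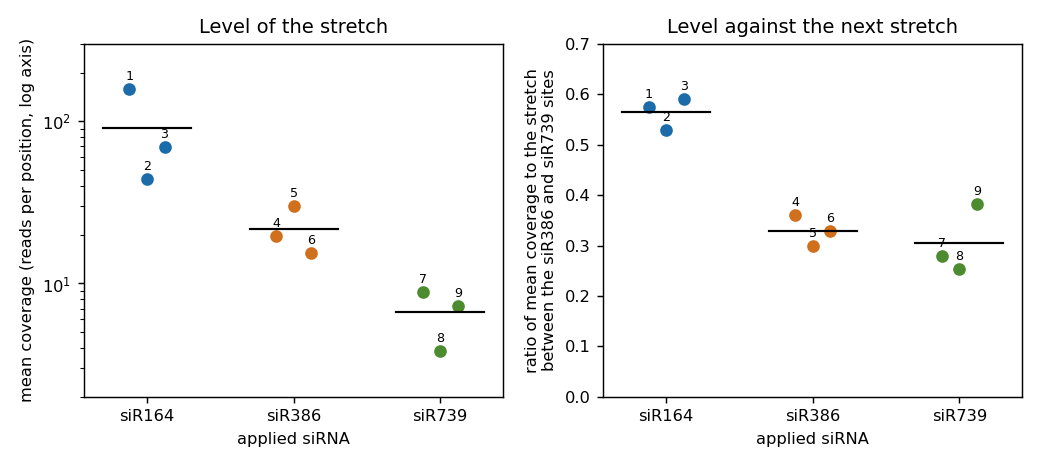
Left, mean coverage of the 200 positions in each library, in reads per position on a log axis. Right, its ratio to mean coverage between the siR386 and siR739 sites. Points are libraries with their replicate numbers and lines are group means (n = 3). The groups did not overlap in level (lowest siR164 library 44.1, highest siR386 library 30.2, highest siR739 library 8.80), and the siR164 ratios (0.529 to 0.590) lay above all others (0.254 to 0.382). In summed coverage of the whole contig, siR386 libraries also lay above siR739 libraries, and siR164 and siR386 libraries overlapped.

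Along the stretch, coverage was low near the siR164 site and high near the siR386 site, whichever siRNA had been applied. The first 100 nt averaged 58.2, 19.1 and 26.5 reads per position in the siR164 libraries, 9.85, 10.4 and 5.36 in the siR386 libraries, and 4.68, 2.30 and 3.20 in the siR739 libraries. The last 100 nt averaged 257, 69.1 and 113 reads in the siR164 libraries, 29.7, 49.9 and 25.7 in the siR386 libraries, and 12.9, 5.34 and 11.4 in the siR739 libraries. The last 100 nt were higher in all 9 libraries, by 2.32 to 4.80 times. This ratio came to 4.11 ± 0.42 with siR164, 4.20 ± 1.03 with siR386 and 2.88 ± 0.63 with siR739 (SD over 3 libraries). With siR164, coverage thus rose with distance from the site of the applied siRNA, and with siR386 and siR739 it rose towards that site.

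The course was next described as a share of the stretch's own sum, which takes out the level. The stretch's sum reached 50% at 150, 152 and 152 nt in the siR164 libraries, at 149, 154 and 152 nt in the siR386 libraries, and at 149, 146 and 156 nt in the siR739 libraries. This midpoint fell within 10 nt in all 9 libraries. The first 25% was reached at 113 to 119 nt with siR164, at 101 to 125 nt with siR386 and at 74 to 110 nt with siR739. The first 75% was reached at 178 ± 2.65 nt with siR164, at 179.7 ± 1.53 nt with siR386 and at 178.3 ± 4.62 nt with siR739 (SD, n = 3). The 25% point thus varied more between libraries than the 50% and 75% points. Shares per position were lower around it, so a given difference in share moves that point further.

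**Figure D2:**
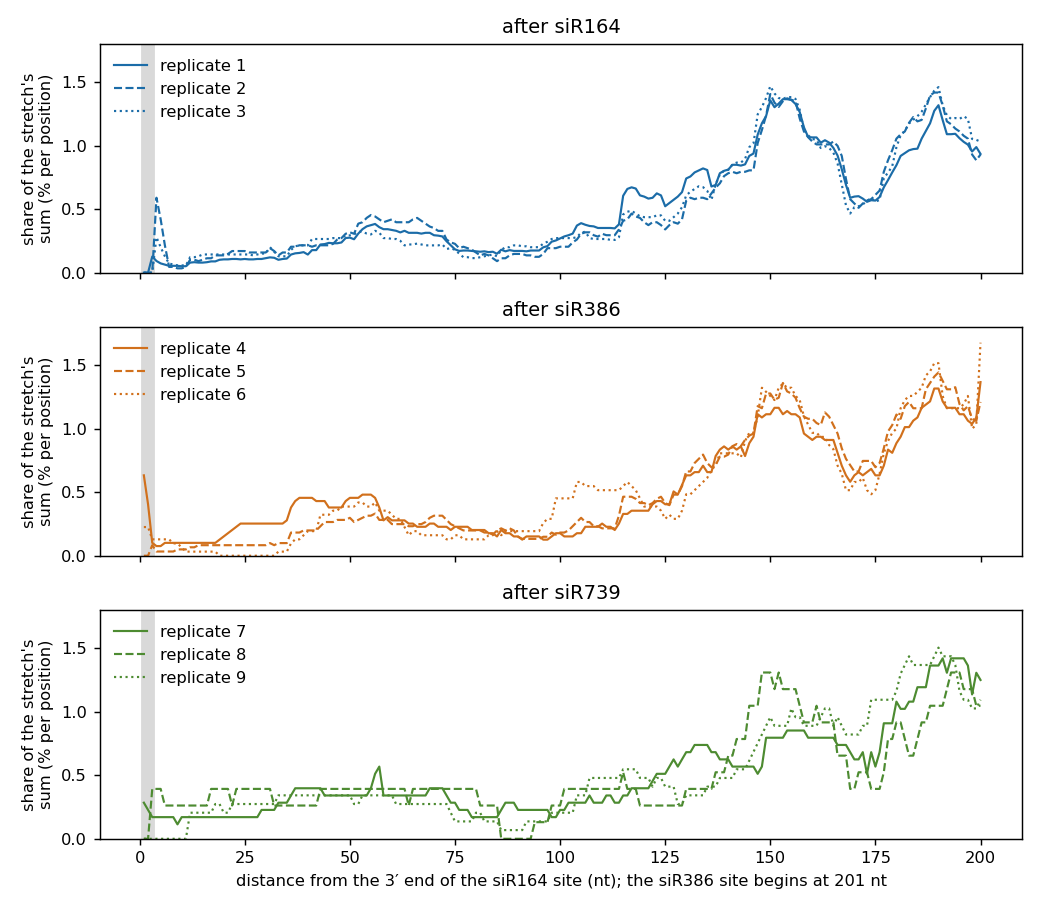
Share of the stretch's own sum at each position (percent per position) against the distance from the 3' end of the siR164 site in nt, with 1 panel per siRNA and 1 line per library. The grey band marks the first 3 positions. All 9 libraries rise towards the siR386 site, and the group means show a maximum at 150 to 153 nt and another at 190 to 193 nt.

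A pair of maxima stood out in each group's mean course, where a maximum is the highest value within 10 positions on either side and above the stretch's mean. The first lay at 150 nt with siR164 (1.41% ± 0.056 of the stretch's sum), at 153 nt with siR386 (1.28% ± 0.14) and at 150 nt with siR739 (1.02% ± 0.26). The second lay at 190 nt with siR164 (1.40% ± 0.073), at 190 nt with siR386 (1.42% ± 0.10) and at 193 nt with siR739 (1.39% ± 0.069; SD, n = 3 throughout). In the mean courses each maximum was thus placed within 3 nt across the siRNAs. The second lay 8 to 11 nt short of the siR386 site. For siR739 the place of the first maximum rested on replicate 8, which had 1.31% at 150 nt from 10 reads. Replicates 7 and 9 had 0.795% and 0.958% at 150 nt, and higher shares slightly further 3'. Agreement in the place of the first maximum is therefore not established for siR739. The most covered position of the mean course was the first maximum with siR164 and the second with siR386 and with siR739. Single libraries varied in this: siR164 replicate 2 was highest near the second maximum, and siR386 replicates 4 and 6 at 200 nt beside the siR386 site. In siR739 replicate 8 the highest coverage, 10 reads, was reached near both maxima, at 150 nt and at 193 nt among others.

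At 150 nt coverage was 428, 124 and 205 reads in the siR164 libraries, 44, 77 and 39 in the siR386 libraries, and 14, 10 and 14 in the siR739 libraries. At 190 nt it was 416, 125 and 204 reads in the siR164 libraries, 52, 87 and 47 in the siR386 libraries, and 24, 8 and 22 in the siR739 libraries. Both positions were about equally covered in siR164 libraries, with a ratio of 0.972 to 1.01, while 190 nt was the higher in the 3 siR386 libraries and in siR739 replicates 7 and 9. The course fell between the maxima, to its lowest mean at 169 nt with siR164 (0.544% ± 0.069) and siR386 (0.604% ± 0.10) and at 170 nt with siR739 (0.613% ± 0.21), a point that was looked up after the maxima had been seen. Coverage at 169 nt was 0.435, 0.411 and 0.317 times that at 150 nt in the siR164 libraries, 0.523, 0.558 and 0.410 times in the siR386 libraries, and 0.857, 0.300 and 0.857 times in the siR739 libraries. The dip was present in all 9 libraries, though it was 2 reads deep in siR739 replicates 7 and 9, with 12 reads at 169 nt against 14 at 150 nt. One more maximum met the rule with siR164 alone, at 117 nt (0.541% ± 0.11), where siR386 libraries had 0.354% to 0.548% and siR739 libraries 0.393% to 0.547%.

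From 4 nt on (197 positions), the mean courses correlated at a Pearson r of 0.985 for siR164 and siR386, 0.942 for siR164 and siR739, and 0.959 for siR386 and siR739. These values are descriptions across neighbouring positions that share reads.

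Of the 10 windows, those at 141–160 nt and 181–200 nt had the highest mean in each group, and held the most in each of the siR164 and siR386 libraries. Window 141–160 held 22.8% ± 0.83 of the stretch's sum with siR164, 21.7% ± 1.18 with siR386 and 17.1% ± 3.52 with siR739. Window 181–200, next to the siR386 site, held 23.0% ± 1.67, 24.3% ± 1.37 and 23.98% ± 3.00 in the same order. Window 161–180 between them held 15.3% ± 0.65, 15.7% ± 1.60 and 15.9% ± 3.19 (SD, n = 3 throughout). For siR739 the place of window 141–160 among the means rested on replicate 8, with 21.1% at 141–160 nt and 13.2% at 161–180 nt. In siR739 replicate 7 window 141–160 held 14.3% against 15.1% at 161–180 nt, and in replicate 9 it held 16.0% against 19.4%. The last 3 windows cover the last 60 nt and together hold more than the other 7 in the mean of each group.

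At the 5' side, window 1–20 held 2.0% ± 0.54 with siR164, 1.87% ± 0.91 with siR386 and 3.71% ± 1.83 with siR739. Window 21–40 held 3.03% ± 0.58, 2.97% ± 2.59 and 5.85% ± 0.75 in the same order. In that window the siR164 libraries, at 2.38% to 3.49%, lay below the siR739 libraries, at 5.06% to 6.54%, while siR386 libraries spread from 0.806% to 5.85%. Window 41–60 held more, with 5.98% ± 0.46, 6.90% ± 1.37 and 7.25% ± 0.48, and window 81–100 less again, with 3.52% ± 0.57, 3.69% ± 0.63 and 3.18% ± 0.99. This shallow rise and fall in the first 100 nt was shared by the group means of the 3 siRNAs (SD, n = 3 throughout). The siR164 and siR739 libraries were also apart in window 41–60, at up to 6.51% against 6.70% and more. In window 141–160 siR164 libraries held 22.1% or more and siR739 libraries 21.1% or less. They overlapped in all other windows of the stretch.

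**Figure D3:**
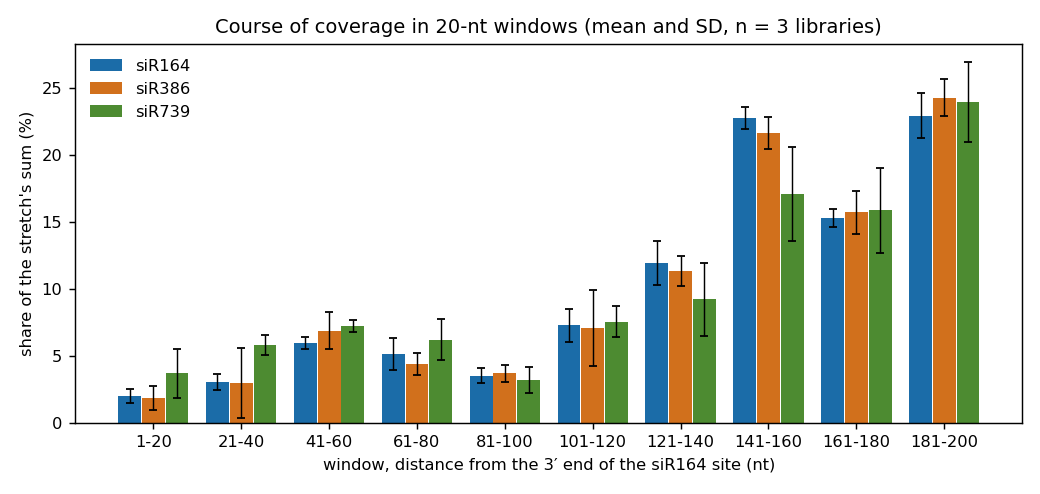
Share of the stretch's own sum in 10 windows of 20 nt (percent), by distance from the 3' end of the siR164 site, for siR164, siR386 and siR739. Bars are means and error bars are SD (n = 3 libraries). Windows 141–160 and 181–200 have the highest means in each group, although in siR739 replicates 7 and 9 window 161–180 held more than 141–160, and the siR739 mean is the lowest of the 3 in window 141–160 (17.1%).

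Whether the course differed between the siRNAs was tested window by window with limma over the whole contig, each window as a log2 share of the sum of its own segment between sites. Of the 38 windows tested, 2.63% were called for siR164 minus the mean of siR386 and siR739, 7.89% for siR164 minus siR739, and 0% for siR164 minus siR386 and for siR386 minus siR739 (limma, adjusted p under 0.05). Among the 10 windows of the stretch the count was 0 in each of the 4 comparisons. At an unadjusted p under 0.05 it was 0 for siR164 against the mean of the others, 0 for siR164 minus siR386, 1 for siR164 minus siR739 and 1 for siR386 minus siR739, in both cases window 141–160. Its log2 difference was 0.43 for siR164 minus siR739 (95% interval 0.11 to 0.75, limma adjusted p = 0.0871) and 0.35 for siR386 minus siR739 (SE 0.14, limma adjusted p = 0.287). Without siR739 replicate 8, which had the fewest reads of all, its share was higher with siR164 than with siR739 by 0.59 (limma adjusted p = 0.01001), with siR386 than with siR739 by 0.51 (limma adjusted p = 0.0215) and with siR164 than the mean of the others by 0.33 (limma adjusted p = 0.0407). Without siR739 replicate 7 the window called was 121–140, higher with siR164 than with siR739 by 0.62 (limma adjusted p = 0.0441).

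A test that misses the threshold does not show that the courses are alike, and the intervals give its reach. For siR164 minus the mean of the others, the 95% interval ran from −0.29 to 0.15 in window 181–200 and from −0.33 to 0.27 in window 161–180. It was much wider at the 5' side, from −1.26 to 0.65 in window 1–20 and from −1.49 to 0.97 in window 21–40. Log2 differences as large as −1 in the first 40 nt thus lay within the intervals of these libraries.

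Measures of the whole course were tested over libraries. The first 100 nt held 18.4%, 21.6% and 18.96% of the stretch's sum in the siR164 libraries, 24.9%, 17.2% and 17.3% in the siR386 libraries, and 26.6%, 30.1% and 21.9% in the siR739 libraries. All siR164 libraries lay below all siR739 libraries, and siR386 libraries overlapped both. On read equivalents, the 95% Wilson interval was 16.0% to 22.1% in siR164 replicate 3 and 16.3% to 45.1% in siR739 replicate 8, and such intervals cover counting error only. The mean share came to 19.7% ± 1.70 with siR164, 19.8% ± 4.43 with siR386 and 26.2% ± 4.12 with siR739 (SD over 3 libraries). The siR164 libraries minus the 6 others differed by −3.34 percentage points (exact two-sided permutation test, p = 0.488 after adjustment over 4 measures of course), and siR164 minus siR739 by −6.53 (exact permutation p = 0.1, the smallest that 3 against 3 libraries can give).

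Low coverage was present outside the stretch too. The first 100 positions of the contig, 5' of all sites, averaged 1.68 ± 1.49 reads in siR164 libraries, 1.62 ± 0.89 in siR386 libraries and 1.91 ± 0.30 in siR739 libraries, where the first 100 nt of the stretch averaged 34.6, 8.53 and 3.39 reads in the same order. With that mean subtracted from each library, the first 100 nt of the stretch held 19% ± 1.16, 17.6% ± 4.95 and 17.3% ± 3.89 of its sum (SD, n = 3), and the difference between siR164 libraries and the others turned to 1.53 percentage points (adjusted exact permutation p = 0.698).

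The coverage-weighted mean position was 139.1 ± 1.38 nt with siR164, 139.8 ± 5.45 nt with siR386 and 132.4 ± 6.12 nt with siR739, with siR164 minus the 6 others at 3.00 nt (adjusted exact permutation p = 0.488). The slope of log2(coverage + 1) over 4 to 200 nt was positive in all 9 libraries. Per 100 nt it was 2.04, 1.71 and 1.82 in the siR164 libraries, 1.46, 2.14 and 2.29 in the siR386 libraries, and 1.23, 0.762 and 1.46 in the siR739 libraries. Each siR164 slope was above each siR739 slope, by 0.71 on average (exact permutation p = 0.1, the smallest possible). Adding 1 can flatten slopes at low coverage, and its part in this difference was not tested. For siR164 minus the 6 others the slope differed by 0.30 (adjusted exact permutation p = 0.488), and by 0.036 with 0.1 added in place of 1 and 0.065 with the mean of the first 100 contig positions subtracted.

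The distance between the courses of 2 libraries was taken as the summed absolute difference of their 10 window shares, divided by 2. It averaged 6.03% within siR164, 9.14% within siR386 and 12.2% within siR739, in the order of falling read number. Between siRNAs it averaged 6.84% for siR164 and siR386, 11.7% for siR164 and siR739, and 11.7% for siR386 and siR739. The mean between groups exceeded that within groups by 0.96 percentage points (10.1% against 9.12%), which did not pass the test (adjusted exact one-sided permutation p = 0.488 over 280 partitions). Taken over single positions in place of windows, the excess was 1.63 percentage points (exact one-sided permutation p = 0.0143, and 0.0571 after adjustment), and with the mean of the first 100 contig positions subtracted it was 1.36 (exact one-sided permutation p = 0.0357, and 0.143 after adjustment). Leaving out 1 library, it ran from 0.13 without siR164 replicate 1 to 1.64 without siR739 replicate 7, with no adjusted p below 0.214.

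The level was also described window by window. These windows hold the difference in level that was known when the stretch was chosen, so their p-values, adjusted over the whole contig, are no independent evidence of it. When each window was expressed as a share of the library's whole coverage outside the sites, 18.4% of the 38 windows of the contig were called higher and 26.3% lower for siR164 minus the mean of siR386 and siR739 (limma, adjusted p under 0.05). In the stretch 7 of 10 windows were higher with siR164 and 0 were lower. These 7 run without a gap from 61 to 200 nt, with log2 differences from 0.64 in window 61–80 to 0.97 in window 141–160 (SE 0.14, limma adjusted p = 0.000107). The 3 windows nearest to the siR164 site did not pass, at 0.32, 0.36 and 0.47 (limma adjusted p = 0.368, 0.382 and 0.0599). The median over the 10 windows was 0.67, against −0.12 over all 38.

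Pair by pair on that scale, siR164 minus siR739 gave 6 windows higher, those from 81 to 200 nt, where 21.1% of windows of the contig were called higher. Window 141–160 had the largest difference in the stretch, at 1.24 (SE 0.16, limma adjusted p = 1.81e-05), and window 121–140 followed at 1.18 (SE 0.24). For siR164 minus siR386, 1 window was called, 141–160 at 0.70 (SE 0.16, limma adjusted p = 0.0204; 2.63% of the contig's windows higher), with 6 at an unadjusted p under 0.05. For siR386 minus siR739, 1 was called, again 141–160 at 0.54 (SE 0.16, limma adjusted p = 0.0231; 5.26% higher). Without siR164 replicate 1, the count for siR164 against the mean of the others was 4 and that for siR164 minus siR386 was 0. The count for siR164 minus siR386 ranged from 0 to 6 over the libraries left out, being 0 also without siR164 replicate 3 or siR386 replicate 5, 2 without siR386 replicate 6, 3 without siR386 replicate 4, 5 without siR739 replicate 9 and 6 without siR739 replicate 8. For siR386 minus siR739, no window was called without siR386 replicate 5 or 6, and 2 were called higher without siR739 replicate 7, at 121–140 and 141–160 nt. Without siR386 replicate 4 window 141–160 was no longer called, and the 2 windows called were lower with siR386 than with siR739, by −0.90 at 1–20 nt (limma adjusted p = 0.0478) and by −1.53 at 21–40 nt (limma adjusted p = 0.00123). Windows of 1 library share its total, so these calls are not independent of each other.

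**Figure D4:**
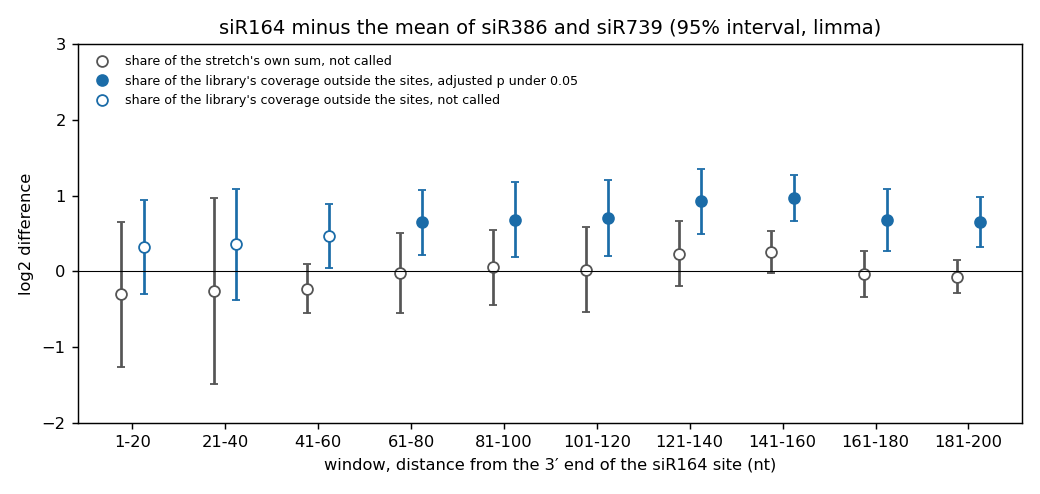
Log2 difference, siR164 minus the mean of siR386 and siR739, in the 10 windows by distance from the 3' end of the siR164 site, as a share of the stretch's own sum (grey) and as a share of the library's coverage outside the sites (blue). Bars are 95% intervals from limma (all 9 libraries in the fit) and filled points have an adjusted p under 0.05. As shares of the library 7 windows are called, and as shares of the stretch 0.

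In group means of raw reads, siR164 exceeded siR386 fairly evenly, by 3.64 times (window 41–60) to 4.84 times (window 101–120). It exceeded siR739 less evenly, by 6.68 times (window 21–40) to 19.2 times (window 141–160). Replicate 1 weighs most in the siR164 means, and siR386 libraries ran from 1.25 to 11.55 reads per position in window 21–40. Window 141–160 held 207 ± 135 reads per position with siR164, 47.4 ± 17.6 with siR386 and 10.8 ± 2.41 with siR739. Window 21–40 held 25.2 ± 11.3, 6.53 ± 5.16 and 3.77 ± 1.10 in the same order (SD, n = 3).

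Both ends of the stretch were read by position. Next to the siR164 site, coverage at 4 nt was 29, 52 and 39 reads in the siR164 libraries, 3, 2 and 4 in the siR386 libraries, and 3, 3 and 0 in the siR739 libraries. At 7 nt it was 17, 4 and 10 reads in the siR164 libraries, 4, 2 and 4 in the siR386 libraries, and 3, 2 and 0 in the siR739 libraries. Coverage beside the zeroed site thus dropped over these 4 positions in the libraries of siR164, whose site it is, and moved by at most 1 read in those of siR386 and siR739. At 1 nt, where the siR164 libraries were at 0, siR386 replicates 4 and 6 had 25 and 7 reads and siR739 replicate 7 had 5. Over the 20 positions from 4 nt on, the means were 25.2, 13.0 and 18.0 reads in the siR164 libraries, 4.65, 3.85 and 1.60 in the siR386 libraries, and 2.95, 2.40 and 2.0 in the siR739 libraries.

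At the other end, the last position before the siR386 site, 200 nt, was compared with 199 nt. In the siR164 libraries it held 295, 82 and 144 reads, against 312, 78 and 146 at 199 nt. In the siR386 libraries it held 54, 73 and 52 reads, against 43, 64 and 32 at 199 nt. In the siR739 libraries it held 22, 8 and 16 reads, against 23, 8 and 15 at 199 nt. Coverage was thus raised locally at 4 nt in the 3 siR164 libraries, where replicate 1 was higher still at 3 nt, with 40 reads. It was also raised at 200 nt in the 3 siR386 libraries, and at 1 nt in siR386 replicate 4, with 25 reads. These are descriptions of positions that were picked after the edges had been seen. From 201 nt on, inside the siR386 site, coverage was 0 in all 9 libraries.

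Secondary siRNAs that are cut successively from a fixed end can start at regular intervals. Positive steps of coverage along the stretch were therefore sorted into registers of 21 nt, and the register set by the bond in the siR164 site that a guide's slicing would cut was examined. It held 8.11%, 8.71% and 10.5% of steps in the siR164 libraries, 5.51%, 6.44% and 6.15% in the siR386 libraries, and 8.93%, 3.57% and 14.0% in the siR739 libraries, where an even spread gives 4.76%. All positive steps summed to 925, 287 and 437 reads in the siR164 libraries and 127, 202 and 130 in the siR386 libraries. In the siR739 libraries they summed to only 56, 28 and 43 reads, so the siR739 shares rest on a few reads each. The siR164 libraries did not differ detectably from the 6 others (1.69 percentage points, exact permutation p = 0.5, two-sided). Leaving out 1 library, this value ran from 0.918 without siR739 replicate 8 to 2.99 without siR739 replicate 9 (exact permutation p = 0.75 and 0.0893). Against siR386 alone the groups did not overlap, by 3.08 percentage points (exact permutation p = 0.1, the smallest possible). The fullest register, of 10.5% to 12.5% in siR164 libraries, was another one in each of them, and in replicate 3 it was the register examined. The register examined was also the fullest in siR739 replicate 9.

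The authors' deposited table covers the same stretch for reads of 21, 22 and 24 nt only. Its 772 rows are as many as a 21-nt read has start positions on the contig, and the values behave as means of 10 successive start positions: undone in that way, 0 values fell below 0 in each column. Coverage rebuilt from these starts at 22 nt per read correlated with the summed coverage of the 3 libraries at an r of 0.986 for siR164, 0.979 for siR386 and 0.894 for siR739 over 4 to 200 nt, against 0.472, 0.567 and 0.541 for the rows as they stand. The columns thus sit 5' of the coverage they describe, and their rows are not directly comparable with positions of coverage. Rebuilt coverage from the authors' deposited table was highest at 190 nt in the siR164 column, 190 nt in the siR386 column and 191 nt in the siR739 column. Of it, the first 100 nt held 19.7% with siR164, 15.8% with siR386 and 18.9% with siR739. In the authors' deposited table of 3 read lengths, the siR739 share was thus above that of siR386 but not above that of siR164. In reads of all lengths, its mean was above both.

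Starts from the authors' deposited table were spread over many positions. Of the 200 positions, 158 had a start in the siR164 column, 114 in the siR386 column and 52 in the siR739 column, in the order of read number. The fullest 5 starts held 15.9% of the starts in the stretch in the siR164 column, 16.3% in the siR386 column and 23.5% in the siR739 column of the authors' deposited table. The start at 148 nt was among these 5 in each column, with 2.98% in that of siR164, 3.32% in that of siR386 and 4.04% in that of siR739. The start at 115 nt was the fullest in the siR164 column (3.95%) and the fourth in the siR739 column (4.46%), and the start at 170 nt was the fullest in the siR386 column (3.42%) and, level with 107 nt, in the siR739 column (5.19%). These are values of pooled columns with no replicate error, and the starts were looked up after the shape of the table was known.

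**Figure D5:**
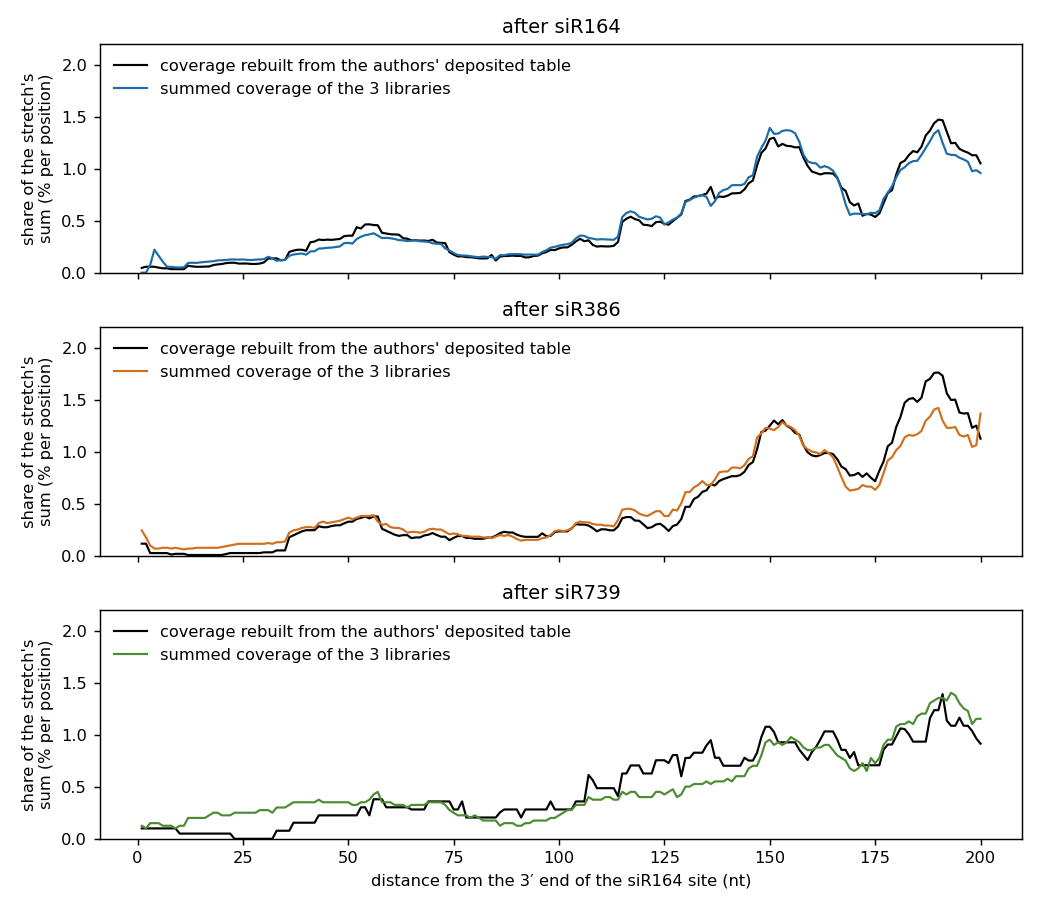
Share of the stretch's sum at each position (percent) against the distance from the 3' end of the siR164 site in nt. Black lines are coverage rebuilt from the authors' deposited table of 3 read lengths (21, 22 and 24 nt), and coloured lines are the summed coverage of the 3 libraries of each siRNA, all read lengths. For siR164 and siR386 both lines peak near 150 nt and 190 nt. From 3 to 30 nt the libraries lie above the rebuilt line for all 3 siRNAs.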

How the data were processed

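Small RNA libraries were aligned and turned into coverage by the authors. The submitters' processing notes name Bowtie2 (version, settings, read trimming and reference: not given in the sources used here). Each library's values are coverage of a GFP contig in whole numbers per interval, per the file headers, with intervals counted from 0 and read here from 1. The deposited table of normalized signal has 1 pooled column per siRNA, and no source used here gives its scaling.

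Groups came from the sample titles. Sums, shares and exact permutation tests were computed in Python 3.11.15 (numpy 2.4.6, pandas 2.3.3). The course measures compared 3 with 6 libraries (84 assignments, smallest p 0.0119). Windows of 20 nt were tested over the whole contig where mean coverage reached 1, with limma 3.58.1 in R 4.3.3 (trended empirical Bayes, fitted on all 9 libraries) on log2(percent + 0.1), with Benjamini-Hochberg adjustment over the 38 windows. Shares of the library were an alternative scale. No count model was used, as coverage counts a read at each position it overlaps, and read equivalents are coverage divided by 22. Named positions were the most covered position and up to 4 local maxima of each group's mean course, and all 10 windows. The stretch, the measures and the windows were chosen with earlier results of these data known. Alternatives were leaving out each library, subtracting the mean of the first 100 contig positions, trimming the ends, other pseudocounts, windows of 25 nt, no filter, quantile normalization and no trend. No sequence of the transgene was analysed here.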

Additional observations from a re-analysis of the deposited data

How the results depend on the processing

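Of 192 recomputed values of 15 results, 170 kept their direction and their side of the threshold (counts within 1.5 times), 20 counts of windows moved and 2 values reversed. With the mean coverage of the first 100 contig positions subtracted, the difference of siR164 libraries from the others turned to 1.53 percentage points in the share of the first 100 nt and −3.70 nt in the coverage-weighted mean position, neither of which passed before or after. Leaving out 1 library, the log2 difference in level ranged from 2.15 to 3.06 and that in the ratio from 0.78 to 0.90, and the course measures stayed without a call, at −4.50 to −1.92 percentage points, 0.99 to 4.51 nt, a slope of 0.14 to 0.45, a distance of 0.13 to 1.64 and a register share of 0.918 to 2.99 percentage points. The slope difference was 0.036 with 0.1 added in place of 1, and the distance excess 1.63 over single positions. As shares of the stretch, windows called ranged from 0 to 1 for siR164 against the mean of the others, for siR164 minus siR739 and for siR386 minus siR739. As shares of the library instead, 7, 1, 6 and 1 windows were called for siR164 against the mean of the others, siR164 minus siR386, siR164 minus siR739 and siR386 minus siR739, which restores the difference in level. Leaving out 1 library on that scale, an alternative added after seeing the data, gave 4 to 9, 0 to 6, 5 to 8 and 0 to 2 in the same order, the 2 without siR386 replicate 4 being in the lower direction. The cause of the moves with single libraries was not tested. Depth limits the siR739 courses, which rest on 35 to 80 read equivalents. No paired analysis was possible because the groups share no replicate numbers.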
